A study of Homo sapiens with 60 samples.

Results

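Soyo-san, a multi-herb formula of Korean and Chinese medicine, was given to HT29 cells as a hot-water extract, and the high dose (500 µg/mL) was compared with the low dose (20 µg/mL) of the same extract after 24 h. HT29 is an established line of colorectal adenocarcinoma with epithelial character. The comparison used 6 of the 60 libraries in the study, 3 per dose, chosen by extract and dose in the sample labels, and every gene that passed the filter on low counts was tested. The study gave HT29 cells water extracts of 7 formulas and single herbs at 3 doses, plus a DMSO vehicle, and counted their transcripts by RNA sequencing. Only the amount of extract separated both groups, which the labels place in the same set of numbered libraries. The 3 medium-dose libraries of Soyo-san (100 µg/mL) served as an intermediate step. The vehicle libraries carry numbers of another set, so their levels are given only as values, and a difference from vehicle cannot be told apart from a difference between the sets. The labels do not say whether the 3 libraries of a dose came from separate cultures, so the p-values reflect only library-to-library spread, and that spread may be technical.

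Several pathways known to answer plant compounds frame the comparison. The aryl hydrocarbon receptor (AhR) is a ligand-activated transcription factor that binds planar aromatic molecules, many of them from plants, and switches on oxidising enzymes such as CYP1A1. NRF2 is released from its inhibitor KEAP1 by reactive compounds and switches on glutathione synthesis and the reduction of aldehydes and quinones. NF-kB drives chemokines that call in neutrophils, such as CXCL1 and CXCL8, and colon epithelial lines can make these chemokines themselves.

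Total counts per library were 21960940 to 28365490 at the high dose and 22914782 to 30727319 at the low dose. Mitochondrially encoded genes took 10.6% to 11.1% of them at the high dose and 10.5% to 11% at the low dose. Of 12 markers of colonic epithelium, 11 averaged at least 1 CPM (reads of a gene scaled to the total of its library), and their summed level was 13200 to 14100 CPM at the high dose and 13000 to 13500 CPM at the low dose. Markers of other cells were low: 8 fibroblast markers summed to 1.97 to 2.60 CPM at the high dose and 2.27 to 2.41 CPM at the low dose (COL1A2, COL3A1, DCN and PDGFRA at 0), and 8 lymphocyte markers to 0.137 to 0.427 CPM at the high dose and 0.175 to 0.31 CPM at the low dose (CD2, CD3D and MS4A1 at 0). The 7 endothelial markers summed to 2.14 to 2.54 CPM at the high dose and 2.31 to 3.01 CPM at the low dose (ERG and KDR at 0). The 7 macrophage markers summed to 7.86 to 10.3 CPM at the high dose and 9.21 to 10.5 CPM at the low dose, most of it CD68 at 6.02 CPM, with TYROBP at 0. High-dose replicate 3 lay away from the other 2 high-dose libraries, which were close to each other. On the first principal component, which held 38.1% of the variance among the 6 libraries, replicates 1 and 2 of the high dose lay at -5.52 and -6.59, replicate 3 at 0.74, and the low-dose libraries at 10.64, -0.34 and 1.07, so that low-dose replicate 1 also lay far from its group. Over 10597 genes the root mean square deviation of high-dose replicate 3 from the group mean (log2) was 0.084, beside 0.068 and 0.066 in the other high-dose libraries and 0.071 to 0.089 in the low-dose libraries, a spread no larger than that within the low dose.

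Between the high and the low dose, 15 genes were higher and 7 lower at an adjusted p under 0.05, which is 0.0880% and 0.0411% of the 17049 genes tested (edgeR's quasi-likelihood test in a fit over 57 libraries, Benjamini-Hochberg adjustment). The higher genes included detoxification enzymes (CYP1A1, UGT1A6, AKR1B10, AKR1C2, ALDH3A2), both subunits of glutathione synthesis's first enzyme (GCLC, GCLM), neutrophil chemokines (CXCL1, CXCL8) and the endoplasmic reticulum chaperone HSPA5. Of these, the calls for UGT1A6 and AKR1C2 are uncertain, as told below. The lower genes included the antiproliferative gene BTG2 and the long non-coding RNA LINC00261. Changes were small: only CYP1A1 (log2 1.89) and NPIPA3 (log2 -1.45) passed a doubling or halving, and 18 of the 22 stayed under 0.5 on the log2 scale. In 20 of the 22 the groups did not overlap, which holds for 14.1% of all genes tested (7.43% with the high dose above, 6.64% with it below). In bulk RNA, fewer cells carrying a transcript and less of it per cell cannot be told apart.

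The set of called genes rested on which libraries entered. In 19 of the 22 genes, high-dose replicate 3 was the high-dose library nearest to the low-dose mean, which was so for 38.8% of all genes tested. Without it edgeR called 78 genes, 42 higher (0.246%) and 36 lower (0.211%), among them all 22. Without high-dose replicate 1 edgeR called 0 genes, with 879 at an unadjusted p under 0.05 and a smallest adjusted p of 0.0603, and without high-dose replicate 2 it called 2. Leaving out low-dose replicate 1, 2 or 3 gave 12, 8 and 4 calls. None of the 22 was called in all 6 of these fits, although each kept its sign in all of them and in 6 other settings, and with near-identical genes summed NPIPA3 turned to 0.05. CYP1A1 and GPAT3 were each called in 5 of the 6 fits, losing the call without high-dose replicate 1. The part of high-dose replicate 3 in the single results was not tested beyond the values given with them.

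**Figure D1:**
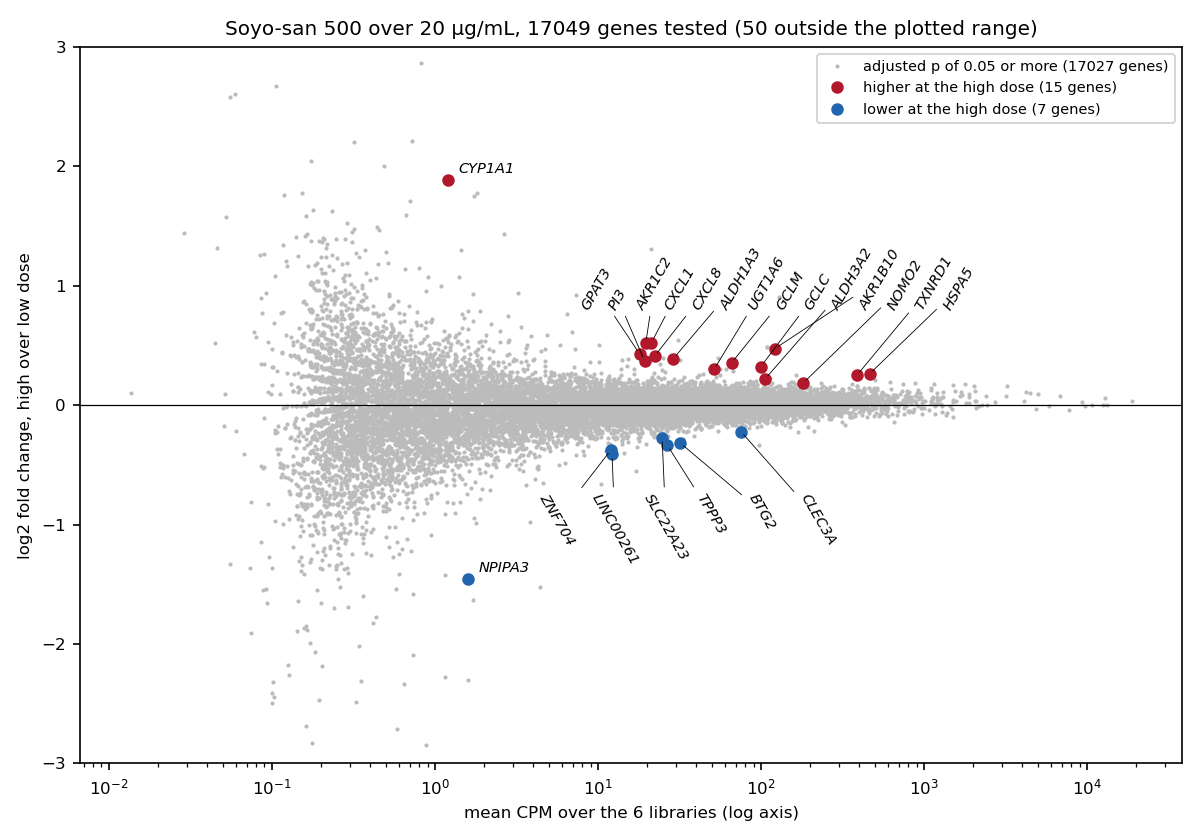
Log2 fold change of the high over the low dose (vertical axis) against the mean CPM of the 6 libraries (horizontal log axis), 1 point per gene tested, with the 15 higher genes in red and the 7 lower genes in blue. Most of the called genes lie within 0.5 of the zero line, at levels where the grey cloud is narrow, while CYP1A1 at 1.89 and NPIPA3 at -1.45 stand out among genes of low level.

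CYP1A1, the classic AhR target that oxidises aromatic hydrocarbons, had the largest change among the called genes. Its level was 2.20, 2.38 and 1.09 CPM in the high-dose libraries, against 0.613, 0.548 and 0.351 CPM in the low-dose libraries. The lowest high-dose value, in replicate 3, was still above every low-dose value. The reads behind these levels were few, 61, 55 and 24 counts at the high dose and 16, 17 and 8 at the low dose. The log2 change was 1.89 ± 0.30 (SE; adjusted p = 0.00141, edgeR), and 2.15 without high-dose replicate 3. Vehicle libraries held 0.336 to 0.576 CPM, a range that overlaps the low dose.

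The 250 bases before the CYP1A1 start are shown because the AhR acts through a short core motif, searched as GCGTG on both strands and marked in capitals (RefSeq, GRCh38.p14, chr15:74725529-74725778, minus strand, written 5′ to 3′ in the direction of the gene).
CYP1A1: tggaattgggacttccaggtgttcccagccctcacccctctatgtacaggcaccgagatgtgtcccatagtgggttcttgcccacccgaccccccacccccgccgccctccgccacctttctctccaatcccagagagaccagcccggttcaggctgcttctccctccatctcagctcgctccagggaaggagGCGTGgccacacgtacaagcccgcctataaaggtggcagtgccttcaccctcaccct
The core occurs once in this stretch, with its first base at -57 counted from the start, and it occurs in 32.2% of 35116 promoter stretches of the same length. The match is a description of these letters and not a measured binding site. The stretch was matched for 16 of the 22 called genes, and 8 of the 16 hold the core. A gene counts here if any of its stretches holds the core. The count of genes and the share of stretches are therefore in unlike units and cannot be compared.

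Of 9 AhR target genes tested, 2 rose and 0 fell, beside 0.0880% and 0.0411% of all genes. The median log2 change was 0.21, beside 0.00 over all genes tested. At an unadjusted p under 0.05, 6 of the 9 were higher and 0 lower, beside 3.89% and 3.87% of all genes. UGT1A6, which attaches glucuronic acid to phenols, was the second called member, with 63.6, 57.2 and 49.4 CPM at the high dose and 50.5, 44.7 and 43.3 CPM at the low dose. Its groups overlapped, since high-dose replicate 3 lay below low-dose replicate 1 (log2 0.30 ± 0.07, adjusted p = 0.0460, edgeR). With 9 UGT1A genes summed, the log2 change was 0.14 and the adjusted p 0.225 (edgeR), so the call for UGT1A6 itself is uncertain. CYP1B1, a related oxidase, was not called: it had 66.5, 67.1 and 51.0 CPM at the high dose and 53.6, 50.1 and 46.1 CPM at the low dose (log2 0.30 ± 0.08, adjusted p = 0.0981, edgeR). Here too replicate 3 alone fell among the low-dose values. NQO1, a quinone reductase shared with NRF2, stood at 573, 551 and 491 CPM at the high dose and 470, 470 and 458 CPM at the low dose, without overlap (log2 0.21 ± 0.05, adjusted p = 0.0772, edgeR). Without high-dose replicate 1, 2 or 3, edgeR called 0, 1 and 5 of the 9, beside 0, 2 and 78 of all 17049 genes tested. AHRR, the receptor's repressor and itself a target, averaged 6.81 CPM at the high dose and 7.36 CPM at the low dose (log2 -0.12 ± 0.09, adjusted p = 0.806, edgeR).

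NRF2 targets had mostly positive changes. Of 29 tested, 27 had a positive log2 change, beside 50.7% of all genes, with a median of 0.18. By edgeR 5 rose and 0 fell, beside 0.0880% and 0.0411% of all genes. The 5 include AKR1C2, whose own call is uncertain, as told below. At an unadjusted p under 0.05, 19 of the 29 were higher and 0 lower, beside 3.89% and 3.87% of all genes. GCLC, the catalytic subunit of glutamate-cysteine ligase, had 119, 115 and 99.0 CPM at the high dose and 88.9, 91.0 and 86.3 CPM at the low dose. Every high-dose library was above every low-dose one (log2 0.32 ± 0.06, adjusted p = 0.00277, edgeR). GCLM, the modifier subunit of the same enzyme, had 73.3, 80.4 and 69.0 CPM at the high dose and 60, 57.2 and 56.7 CPM at the low dose, again without overlap (log2 0.36 ± 0.08, adjusted p = 0.0285, edgeR). TXNRD1, which keeps thioredoxin reduced and carries selenocysteine, had 461, 424 and 378 CPM at the high dose and 367, 346 and 349 CPM at the low dose (log2 0.25 ± 0.05, adjusted p = 0.0222, edgeR).

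AKR1B10, a reductase of aldehydes and retinal, had 158, 155 and 110 CPM at the high dose and 102, 96.9 and 106 CPM at the low dose. Replicates 1 and 2 of the high dose were far above the rest, and replicate 3 lay just above the highest low-dose library (log2 0.47 ± 0.10, adjusted p = 0.0222, edgeR). It covered 15.2% of the distance between the low-dose mean and the mean of the other 2 high-dose libraries. AKR1C2, a ketosteroid reductase, had the same shape, with 27.5, 24.5 and 17.2 CPM at the high dose and 15.6, 16.6 and 16.3 CPM at the low dose (log2 0.52 ± 0.11, adjusted p = 0.0222, edgeR). Here replicate 3 covered 10.5% of that distance. AKR1C2 has close relatives whose reads the counting may have divided: with 4 AKR1C genes summed, the log2 change was 0.37 ± 0.09 and the adjusted p 0.104 (edgeR), so the call for AKR1C2 itself is uncertain.

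Other well-known NRF2 targets were not called. HMOX1, which breaks down haem, had 14.6, 12.1 and 10.8 CPM at the high dose and 10.6, 11.5 and 9.96 CPM at the low dose, with overlap (log2 0.23 ± 0.11, adjusted p = 0.598, edgeR). SLC7A11, the cystine importer, had 187, 191 and 156 CPM at the high dose and 158, 149 and 141 CPM at the low dose (log2 0.25 ± 0.14, adjusted p = 0.677, edgeR). In both, replicates 1 and 2 of the high dose exceeded every low-dose library and replicate 3 did not. Without high-dose replicate 1 or 2 edgeR called 0 of the 29. Without replicate 3 it called 7, all higher, beside 0.246% of all genes, with a list median of 0.25.

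The GCLM promoter is shown for the antioxidant response core, searched as TGACNNNGC on both strands (RefSeq, GRCh38.p14, chr1:93909431-93909680, minus strand, in the direction of the gene; the match, here on the opposite strand, is in capitals).
GCLM: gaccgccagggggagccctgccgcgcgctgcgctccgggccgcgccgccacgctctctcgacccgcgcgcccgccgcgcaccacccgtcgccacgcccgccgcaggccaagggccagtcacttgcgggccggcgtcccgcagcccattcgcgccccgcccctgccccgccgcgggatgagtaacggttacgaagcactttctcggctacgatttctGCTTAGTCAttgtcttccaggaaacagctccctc
The match begins at -34. The core occurs in 10.9% of all promoter stretches. Counted per gene, which is another unit, it occurs in 4 of the 16 matched called genes, GCLM, TXNRD1, UGT1A6 and LINC00261. The GCLC stretch holds 0 matches within these 250 bases.

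**Figure D2:**
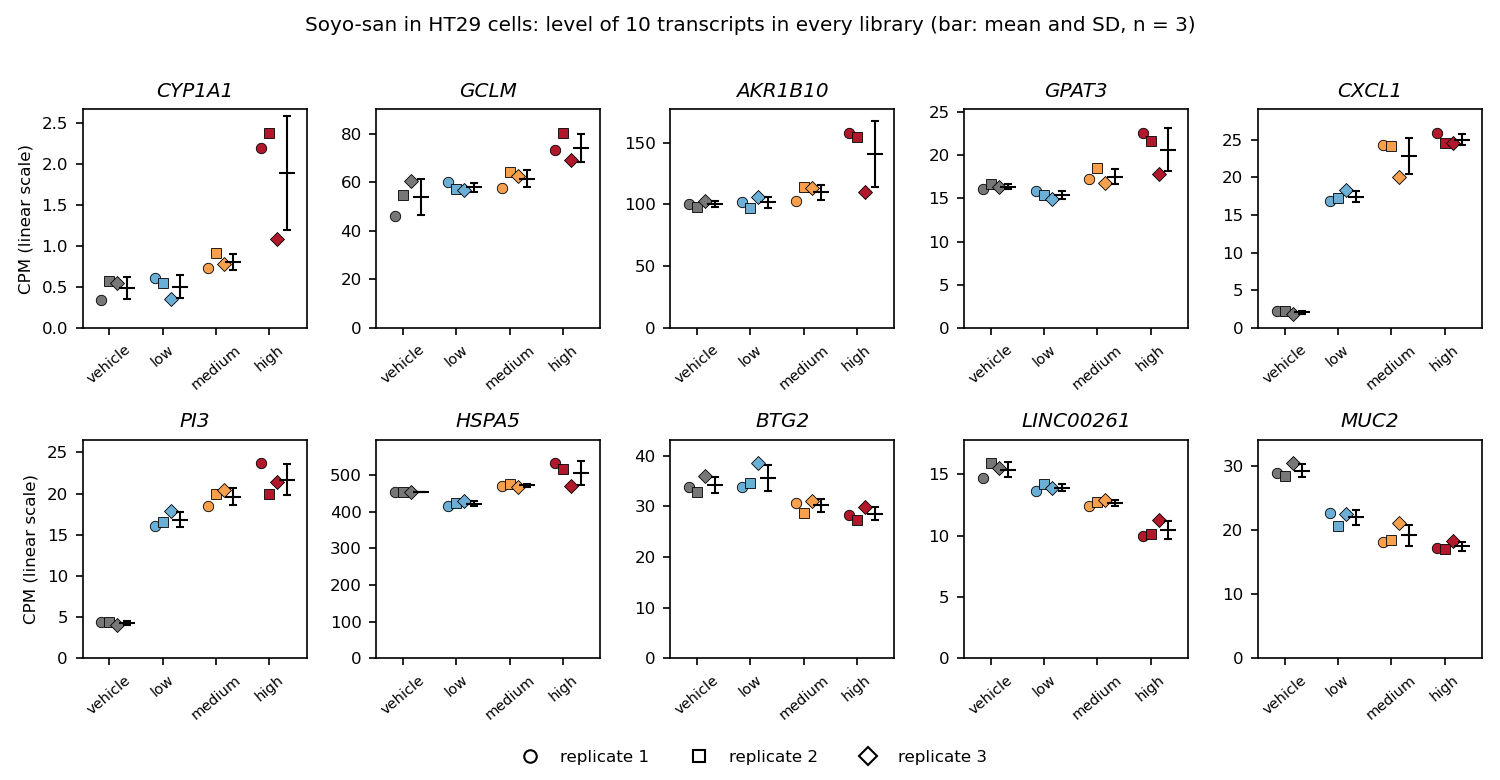
CPM (vertical axis, from 0) of 10 transcripts in each library with vehicle, low, medium and high dose from left to right; symbols tell the replicates and the bar gives the mean and SD (n = 3). In CYP1A1, AKR1B10 and GPAT3 the high-dose diamond (replicate 3) lies well below the other high-dose symbols, in CXCL1 the high-dose libraries sit together at 24.5 to 25.9 CPM, and LINC00261 steps down from low to medium to high.

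Chemokines and a protease inhibitor were also among the higher genes. CXCL1, a neutrophil attractant, had 25.9, 24.6 and 24.5 CPM at the high dose and 16.8, 17.2 and 18.3 CPM at the low dose. The 3 high-dose libraries lay close together and all above the low dose (log2 0.52 ± 0.11, adjusted p = 0.0222, edgeR). CXCL8, the other main neutrophil attractant, had 26.8, 25.9 and 23.4 CPM at the high dose and 18.1, 19.0 and 20.3 CPM at the low dose, without overlap (log2 0.41 ± 0.09, adjusted p = 0.0272, edgeR). PI3, which encodes the elastase inhibitor elafin, had 23.7, 20.0 and 21.4 CPM at the high dose and 16.1, 16.5 and 17.9 CPM at the low dose (log2 0.37 ± 0.08, adjusted p = 0.0286, edgeR). High-dose replicate 3 covered 90.5%, 58.6% and 90% of the distance between the low-dose mean and the mean of the other 2 high-dose libraries in CXCL1, CXCL8 and PI3. In the called NRF2 targets GCLM, GCLC, TXNRD1, AKR1B10 and AKR1C2 the same share was 58.4%, 36.2%, 27.1%, 15.2% and 10.5%, so that GCLM was level with CXCL8. The vehicle levels were 1.8 to 2.22 CPM for CXCL1, 7.65 to 8 CPM for CXCL8 and 4.01 to 4.40 CPM for PI3, so all 3 transcripts were already above these at the low dose, in libraries of the other set.

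Of 17 chemokines and cytokines under NF-kB tested, 2 rose and 0 fell, beside 0.0880% and 0.0411% of all genes. The median log2 change was 0.25, beside 0.00 over all genes tested. At an unadjusted p under 0.05, 7 were higher and 0 lower, beside 3.89% and 3.87% of all genes. The 7 were CXCL1, CXCL8 and 5 further members that were not called and are named after their values were seen. CXCL2 had 2.38, 2.29 and 1.73 CPM at the high dose and 1.34, 1.32 and 1.27 CPM at the low dose, with replicate 3 the lowest of the high dose (log2 0.70, adjusted p = 0.225, edgeR). CXCL3 averaged 4.24 CPM at the high dose and 3.03 CPM at the low dose (log2 0.48), CXCL5 0.894 CPM at the high dose and 0.409 CPM at the low dose (log2 1.14). CXCL6 averaged 2.49 CPM at the high dose and 1.65 CPM at the low dose (log2 0.59), and CCL20 2.94 CPM at the high dose and 2.05 CPM at the low dose (log2 0.53). The other 10 members, among them the interferon-driven CXCL10 and CXCL11, had p-values over 0.05. NF-kB's own subunits and feedback genes showed 0 calls among 21 tested, 1 at an unadjusted p under 0.05 and a median of 0.05. ICAM1, an adhesion molecule under NF-kB, averaged 9.99 ± 0.922 CPM at the high dose and 7.77 ± 0.746 CPM at the low dose (SD, n = 3 each; log2 0.36, adjusted p = 0.237, edgeR). Interferon response genes had 0 calls among 27, with 0 at an unadjusted p under 0.05 in either direction (edgeR), and a median of -0.03.

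The stretches before CXCL1 (chr4:73869143-73869392, plus strand) and CXCL8 (chr4:73740319-73740568, plus strand; both RefSeq, GRCh38.p14) are shown because both genes moved together and NF-kB binds sites that open with G and close with C. The core was searched on both strands as GGG and CC with any 5 bases between them, and is in capitals.
CXCL1: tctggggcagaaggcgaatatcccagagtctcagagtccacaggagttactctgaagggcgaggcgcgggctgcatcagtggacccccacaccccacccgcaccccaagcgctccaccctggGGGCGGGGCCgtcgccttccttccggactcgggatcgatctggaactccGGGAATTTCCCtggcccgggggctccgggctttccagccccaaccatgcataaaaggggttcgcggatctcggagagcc
CXCL8: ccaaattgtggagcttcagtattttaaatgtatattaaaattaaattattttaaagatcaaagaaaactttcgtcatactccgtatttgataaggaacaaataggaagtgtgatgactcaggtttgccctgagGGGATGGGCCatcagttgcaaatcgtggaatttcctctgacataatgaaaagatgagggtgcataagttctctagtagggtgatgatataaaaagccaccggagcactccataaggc
CXCL1 holds 3 matches, beginning at -128, -79 and -78, of which the last 2 overlap by all but 1 base. CXCL8 holds 1 match to this pattern, at -117. The capitals mark matching letters and not measured binding sites, and a site with other end letters would not be marked. So short and loose a pattern occurs in 54.4% of all promoter stretches and, counted per gene, which is another unit, in 11 of the 16 matched called genes.

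HSPA5, the main chaperone of the endoplasmic reticulum (BiP), had 532, 517 and 469 CPM at the high dose and 415, 422 and 428 CPM at the low dose. Its lowest high-dose value was replicate 3, which was still above every low-dose library (log2 0.26 ± 0.05, adjusted p = 0.0219, edgeR). Of 22 genes of the unfolded protein response tested, HSPA5 alone was called. Their median was 0.09, and 20 of the 22 had a positive log2 change, beside 50.7% of all genes. At an unadjusted p under 0.05, 9 were higher and 0 lower, beside 3.89% and 3.87% of all genes. PDIA4, a disulphide isomerase among the 9, had 459, 455 and 429 CPM at the high dose and 393, 411 and 423 CPM at the low dose. HYOU1, a further chaperone among them, had 322, 319 and 304 CPM at the high dose and 290, 286 and 303 CPM at the low dose. The log2 changes of PDIA4 and HYOU1 were 0.13 and 0.11, with adjusted p-values of 0.408 and 0.419 (edgeR).

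The HSPA5 promoter holds the endoplasmic reticulum stress element, searched on both strands as CCAAT and CCACG with any 9 bases between them (RefSeq, GRCh38.p14, chr9:125241344-125241593, minus strand, in the direction of the gene; match in capitals).
HSPA5: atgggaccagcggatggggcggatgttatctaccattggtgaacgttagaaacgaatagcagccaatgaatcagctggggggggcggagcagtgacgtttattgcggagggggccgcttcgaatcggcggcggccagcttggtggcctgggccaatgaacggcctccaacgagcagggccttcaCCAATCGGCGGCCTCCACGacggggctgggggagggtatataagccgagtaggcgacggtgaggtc
It begins at -66 from the RefSeq start. Of the promoters shown, this is the only one where the bases after the start did not match an annotated transcript of the gene. Its position is therefore less sure. This longer pattern occurs in 26 of the 35116 stretches (0.074%), and HSPA5 is the only called gene among the 16 matched that holds it.

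GPAT3, ALDH1A3 and ALDH3A2 were higher as well. GPAT3, which adds a fatty acid to glycerol-3-phosphate in triglyceride synthesis, had 22.6, 21.6 and 17.8 CPM at the high dose and 15.9, 15.4 and 14.9 CPM at the low dose, without overlap (log2 0.43 ± 0.07, adjusted p = 0.00141, edgeR). ALDH1A3, which makes retinoic acid from retinal, had 36.7, 34.6 and 27.5 CPM at the high dose and 27.7, 26.6 and 21 CPM at the low dose. Its high-dose replicate 3 lay just below low-dose replicate 1, so the groups overlapped (log2 0.39 ± 0.08, adjusted p = 0.0115, edgeR). ALDH3A2, which oxidises fatty aldehydes, had 120, 119 and 103 CPM at the high dose and 98.9, 98.2 and 96.4 CPM at the low dose (log2 0.22 ± 0.05, adjusted p = 0.0272, edgeR). ALDH1A3 was the 1 called member among 14 genes of retinoid metabolism, whose median was 0.01. The list of fatty acid and glycerolipid synthesis, which does not hold GPAT3, had 0 called members among 20 (edgeR). At an unadjusted p under 0.05, 2 of the 20 were higher and 0 lower, beside 3.89% and 3.87% of all genes.

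NOMO2 and NPIPA3 belong to families of near-identical copies on chromosome 16, so their values depend on how reads were divided. NOMO2, an endoplasmic reticulum membrane protein, had 198, 197 and 184 CPM at the high dose and 174, 168 and 167 CPM at the low dose (log2 0.19 ± 0.04, adjusted p = 0.0222, edgeR). With NOMO1, NOMO2 and NOMO3 summed the log2 change was 0.08 and the adjusted p 0.533 (edgeR). NPIPA3, of the nuclear pore complex interacting protein family, had 0.720, 0.778 and 1.09 CPM at the high dose and 2.07, 2.64 and 2.28 CPM at the low dose (log2 -1.45 ± 0.27, adjusted p = 0.00767, edgeR). Its relative NPIPA2 went the other way, with 0.504, 0.691 and 1.59 CPM at the high dose and 0 in each low-dose library. The 8 NPIPA genes together had 109, 107 and 114 CPM at the high dose and 98.5, 117 and 103 CPM at the low dose (log2 0.05, adjusted p = 0.901, edgeR), so the family's total did not follow NPIPA3. UGT1A6 shares exons with its neighbours, and the 9 UGT1A genes summed gave a log2 change of 0.14 with an adjusted p of 0.225 (edgeR).

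Of the lower genes only BTG2 belonged to any list examined, so the lists cannot tell whether the lower genes share a role. LINC00261, a long non-coding RNA next to FOXA2, had 10.0, 10.1 and 11.3 CPM at the high dose and 13.6, 14.2 and 13.9 CPM at the low dose. The groups were well apart (log2 -0.41 ± 0.07, adjusted p = 0.00277, edgeR). BTG2, an early response gene also induced by p53, had 28.3, 27.3 and 29.9 CPM at the high dose and 33.7, 34.5 and 38.5 CPM at the low dose, without overlap (log2 -0.32 ± 0.06, adjusted p = 0.00767, edgeR). It was the only called member of both lists that hold it, the immediate early genes (25 tested, median 0.00) and the p53 targets (22 tested, median -0.01).

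SLC22A23, a member of the organic ion transporter family, had 21.6, 23.0 and 22.6 CPM at the high dose and 27.2, 27.5 and 26.4 CPM at the low dose (log2 -0.27 ± 0.06, adjusted p = 0.0285, edgeR). CLEC3A, a C-type lectin, had 65.2, 68.1 and 75.5 CPM at the high dose and 80.5, 80.9 and 81.8 CPM at the low dose (log2 -0.22 ± 0.05, adjusted p = 0.0348, edgeR). The zinc finger gene ZNF704 had 9.58, 10.9 and 10.8 CPM at the high dose and 14.9, 12 and 13.7 CPM at the low dose (log2 -0.38 ± 0.08, adjusted p = 0.0414, edgeR). TPPP3, which binds tubulin, had 23.1, 21.6 and 26.0 CPM at the high dose and 26.6, 30.6 and 32.0 CPM at the low dose (log2 -0.34 ± 0.08, adjusted p = 0.0414, edgeR). In all of these the groups stayed apart, in TPPP3 by the narrowest margin.

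The next lists had most members slightly higher at the high dose with 0 called members, and are described by their counts and their level per library. All 29 proteasome subunits tested had a positive log2 change, with a median of 0.09, and 11 were higher and 0 lower at an unadjusted p under 0.05. The mean of their log2 CPM, less the low-dose mean, was 0.12, 0.10 and 0.05 in the high-dose libraries. It was 0.01, 0.13 and 0.02 at the medium dose and -0.01, 0.00 and 0.01 at the low dose. PSMC1, an ATPase of the regulatory cap, had 80.7, 81.3 and 77.1 CPM at the high dose and 71.7, 71.1 and 72.9 CPM at the low dose (log2 0.15 ± 0.05, adjusted p = 0.358, edgeR). All 26 genes of MYC and ribosome biogenesis tested were likewise positive, with a median of 0.11 and 9 at an unadjusted p under 0.05. The same mean was 0.17, 0.12 and 0.03 at the high dose and -0.04, 0.01 and 0.03 at the low dose. High-dose replicate 3 was thus level with low-dose replicate 3. Of 35 genes of the G1/S transition and DNA replication, 31 were positive, with a median of 0.08 and 9 at an unadjusted p under 0.05. Their mean was 0.11, 0.08 and 0.02 at the high dose and -0.02, 0.01 and 0.01 at the low dose. In each of these lists replicate 3 was the lowest high-dose library. Over all genes tested 50.7% were positive, and 3.89% were higher and 3.87% lower at an unadjusted p under 0.05. Members of such lists vary together within a library, so their number is not a number of independent measurements. MYC itself had 280, 301 and 267 CPM at the high dose and 237, 277 and 289 CPM at the low dose, with overlap (log2 0.08 ± 0.08, adjusted p = 0.868, edgeR). The proliferation marker MKI67 (log2 0.04, adjusted p = 0.957, edgeR) and the cell cycle inhibitor CDKN1A (log2 0.04, adjusted p = 0.968, edgeR) were not called, and their signs turned in 3 and 1 of the fits that left out a library.

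The goblet, membrane mucin and WNT lists had mostly negative changes, with 0 called members by edgeR. At an unadjusted p under 0.05, 3.87% of all genes tested were lower and 3.89% higher, to be set beside the counts that follow. Of 17 goblet and secretory genes 13 were negative, with a median of -0.08 and 4 lower and 1 higher at an unadjusted p under 0.05. MUC2, the main secreted mucin, had 17.2, 17.0 and 18.3 CPM at the high dose and 22.7, 20.7 and 22.6 CPM at the low dose. Its groups did not overlap, but the fit gave a wide error (log2 -0.33 ± 0.16, adjusted p = 0.652, edgeR). All 8 membrane mucins were negative, with a median of -0.10. Of 17 WNT targets 12 were negative, with a median of -0.06 and 4 lower at an unadjusted p under 0.05. The WNT target nearest to the threshold was the ephrin receptor gene EPHB3, at 20.5, 21.9 and 20.3 CPM in the high-dose libraries and 25.0, 24.1 and 25.8 CPM in the low-dose libraries (log2 -0.26 ± 0.06, adjusted p = 0.0641, edgeR). The 12 colonic epithelium markers were evenly split (6 positive, 6 negative, median -0.02), while 19 tight junction genes had a median of -0.02 and 14 enterocyte genes one of -0.05. Heat shock genes had a median of 0.08 (19 tested, 5 higher at an unadjusted p under 0.05). The cholesterol genes (28 tested, median 0.01), mitochondrially encoded genes (13 tested, median -0.01) and nuclear oxidative phosphorylation genes (33 tested, median 0.01) had 0 calls and medians close to 0. TXNIP, a glucose-regulated inhibitor of thioredoxin, did not pass the test (log2 -0.07 ± 0.07, adjusted p = 0.869, edgeR).

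**Figure D3:**
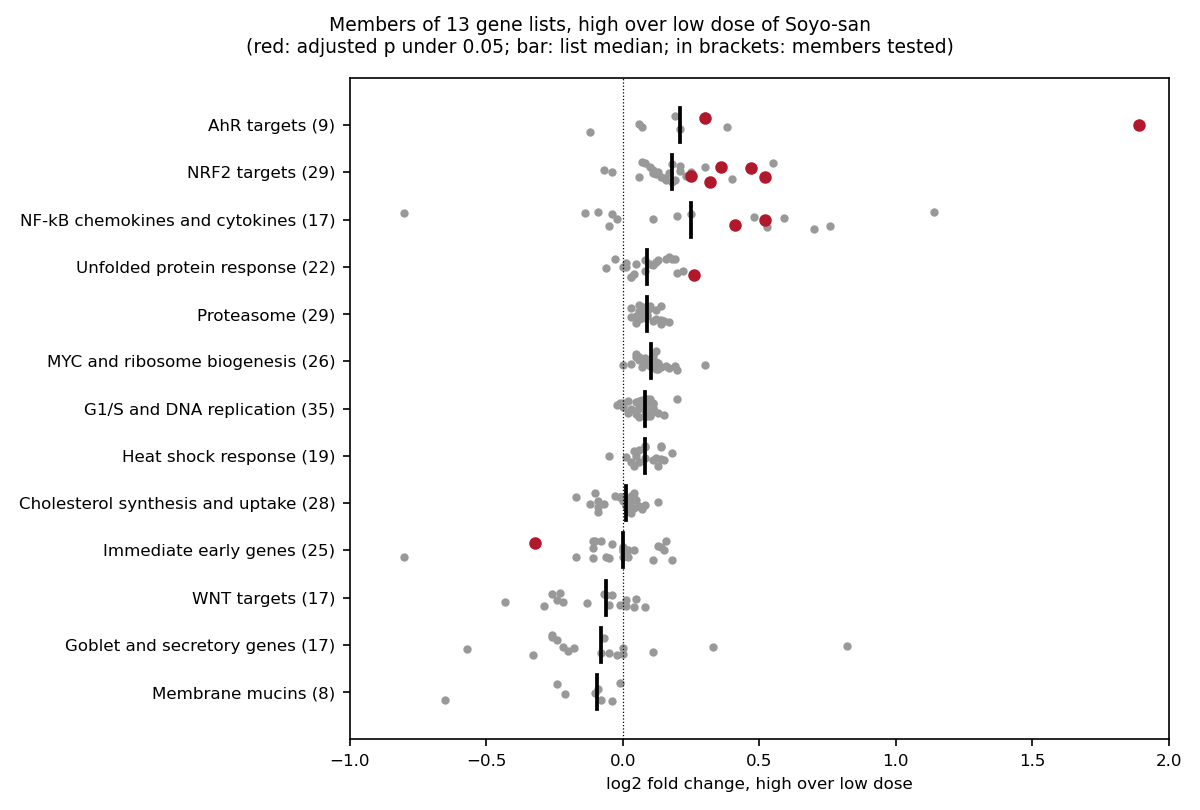
Log2 fold change of the high over the low dose for the tested members of 13 lists (1 point per gene, red where the adjusted p is under 0.05, black bar at the list median), lists picked after their values were seen. The AhR, NRF2 and chemokine lists have medians of 0.21, 0.18 and 0.25, the proteasome and ribosome biogenesis members all lie at or right of 0, and the membrane mucins all lie left of it.

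The list levels by library set replicate 3 of the high dose beside the other libraries. For AhR targets the mean of the members' log2 CPM, less the low-dose mean, was 0.46, 0.41 and 0.15 in the high-dose libraries, and 0.10, 0.01 and -0.10 in the low-dose libraries. For NRF2 targets it was 0.29, 0.25 and 0.06 at the high dose and 0.02, 0.00 and -0.02 at the low dose. Replicate 3 was thus the lowest high-dose library in both, within reach of the low dose. For the chemokine list it was 0.24, 0.29 and 0.27 at the high dose and -0.02, -0.05 and 0.08 at the low dose, with replicate 3 among the rest. For membrane mucins replicate 3 was the farthest from the low dose, at -0.25 beside -0.15 and -0.17.

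**Figure D4:**
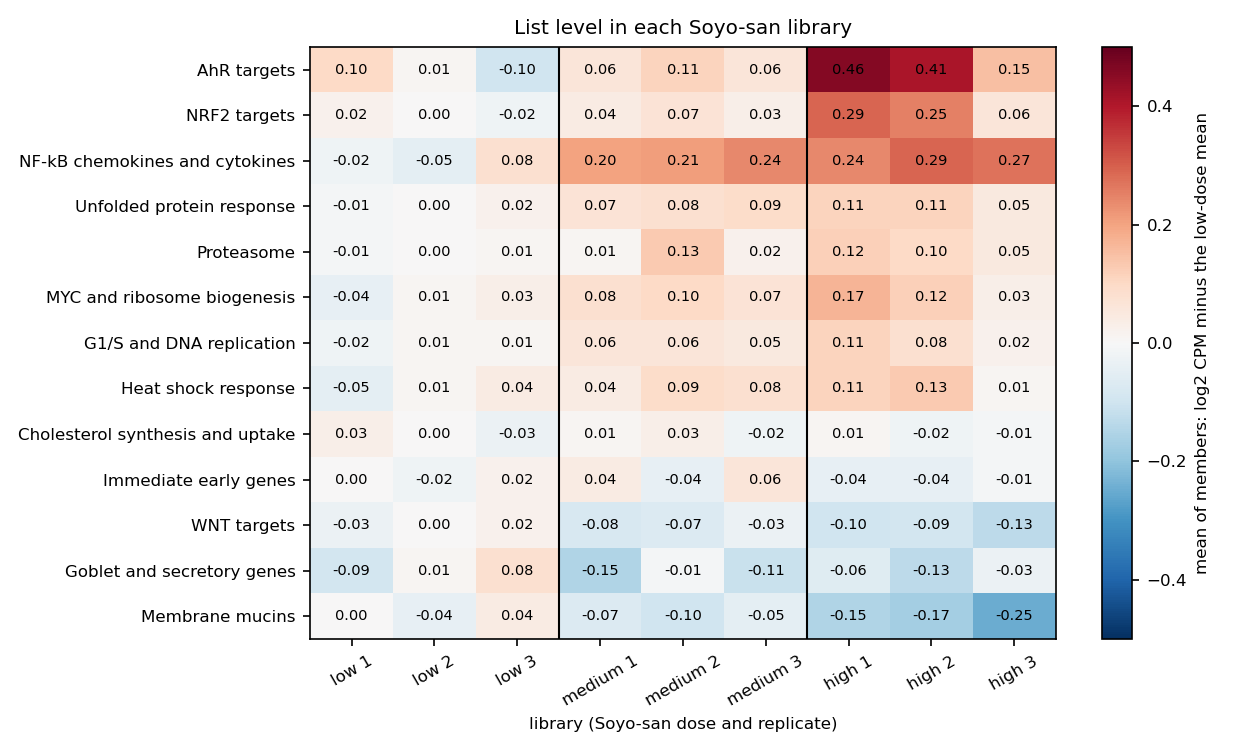
Mean over list members of log2 CPM minus the low-dose mean (colour and number), with 13 lists in rows and the Soyo-san libraries in columns from low over medium to high. High replicate 3 is paler than high 1 and 2 in the AhR (0.15), NRF2 (0.06) and ribosome biogenesis (0.03) rows and not in the chemokine row (0.27), which is raised at the medium dose too.

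At the medium dose no gene was called on either side. Medium against low dose gave 0 calls by edgeR (0% of genes tested), with 699 genes at an unadjusted p under 0.05 and 1 call by DESeq2. High against medium dose gave 0 calls by edgeR (0%), with 598 at an unadjusted p under 0.05 and 2 calls by DESeq2. Without high-dose replicate 3, the high against medium comparison gave 12 calls. In 21 of the 22 genes called between high and low, the medium mean lay between both, which holds for 40% of all genes tested; the genes were chosen for a difference between the outer doses, so the share is a description. The medium levels of CXCL1 were 24.3, 24.1 and 20.1 CPM, nearer to the high than to the low dose (medium over low log2 0.39, high over medium 0.13). CYP1A1 stood at 0.727, 0.920 and 0.774 CPM at the medium dose (medium over low 0.65, high over medium 1.24). AKR1C2 at 16.5, 15.6 and 16.3 CPM lay at the low-dose level (medium over low 0.00, high over medium 0.52). LINC00261 at 12.4, 12.7 and 12.9 CPM lay between the groups (medium over low -0.14, high over medium -0.28).

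The other 5 extracts with 3 libraries per dose allowed the same contrast, high over low dose, in libraries that the Soyo-san contrast does not use. All extracts shared 1 fit and its estimate of each gene's spread, so calls of the same gene in several extracts are not independent. Menthae Herba, the mint herb, had 192 genes higher (1.13%) and 210 lower (1.23%), and of the genes called for Soyo-san it had 13 of the 15 higher ones and 5 of the 7 lower ones called in the same direction (15 of 15 positive beside 51.2% of all genes, 6 of 7 negative beside 48.6%). Guibi-tang had 36 higher (0.211%) and 24 lower (0.141%), and called 11 of the 15 and 3 of the 7 (14 of 15 positive beside 50% of all genes, 6 of 7 negative beside 49.9%). Okbyeongpung-san, from the same set of libraries as Soyo-san, had 1 gene called, CXCL1 (0.00587% higher), and all 15 had a positive log2 change there, beside 50.8% of all genes, and 6 of the 7 a negative one, beside 49.2%. Saengmaek-san had 2 higher and 2 lower genes (0.0117% each) and called 1 of the 15 and 1 of the 7 (15 of 15 positive beside 52.3% of all genes, 6 of 7 negative beside 47.7%). Saposhnikoviae Radix had 5 higher genes (0.0293%) and called 3 of the 15 (14 of 15 positive beside 49.8% of all genes, 5 of 7 negative beside 50.1%).

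CYP1A1's log2 change of 1.89 ± 0.30 for Soyo-san stood beside 3.09 ± 0.24 for Menthae Herba, 0.49 ± 0.31 for Guibi-tang and 0.75 ± 0.32 for Okbyeongpung-san. CXCL1's 0.52 ± 0.11 stood beside 0.72 ± 0.21, 0.75 ± 0.11 and 0.61 ± 0.11 for the same extracts. For Saengmaek-san and Saposhnikoviae Radix, neither called for either gene, CYP1A1 stood at 0.93 ± 0.30 and 1.01 ± 0.27, and CXCL1 at 0.17 ± 0.22 and 0.34 ± 0.20. These CXCL1 changes stood on unlike levels. The high-dose and low-dose means were 25 and 17.4 CPM for Soyo-san, 28.6 and 17 CPM for Guibi-tang, and 26.5 and 17.3 CPM for Okbyeongpung-san. They were 2.26 and 1.37 CPM for Menthae Herba, 1.85 and 1.62 CPM for Saengmaek-san, and 1.88 and 1.5 CPM for Saposhnikoviae Radix. NOMO2, NPIPA3 and SLC22A23 were called between the doses for Soyo-san only. NOMO2 stood at 0.19 ± 0.04 beside 0.07 ± 0.04, -0.02 ± 0.04 and 0.02 ± 0.04 for Menthae Herba, Guibi-tang and Okbyeongpung-san. Its difference from these extracts did not pass the test (adjusted p = 1.00, 0.835 and 1.00, edgeR). With the NOMO genes summed, the Soyo-san change itself did not pass (log2 0.08, adjusted p = 0.533, edgeR). SLC22A23 stood at -0.27 ± 0.06 for Soyo-san, beside -0.12 ± 0.06 for Menthae Herba, -0.03 ± 0.06 for Guibi-tang and -0.13 ± 0.06 for Okbyeongpung-san. It stood at -0.16 ± 0.06 for Saengmaek-san and 0.01 ± 0.05 for Saposhnikoviae Radix. The difference of SLC22A23 passed the test against none of these extracts (edgeR), so its call for Soyo-san only is not a shown difference.

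**Figure D5:**
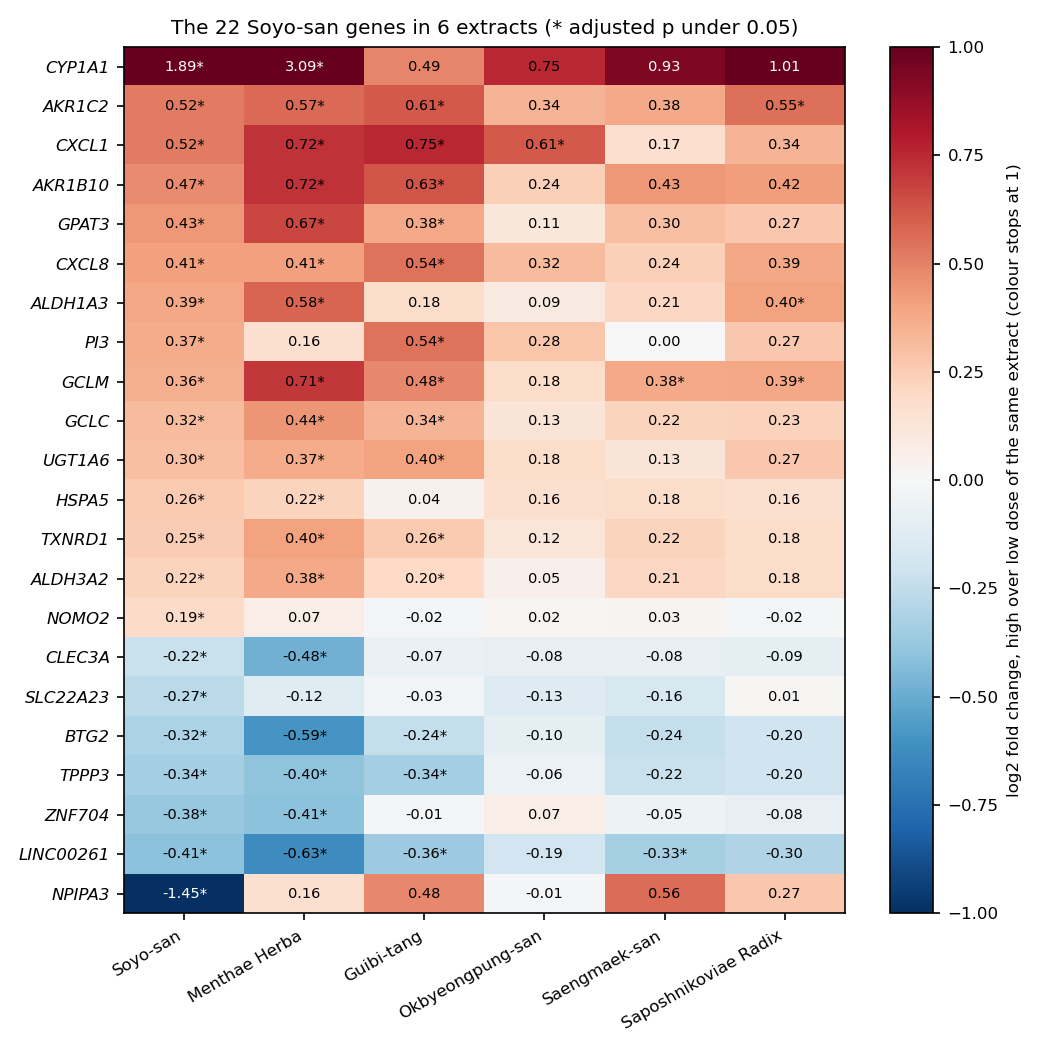
Log2 fold change of the high over the low dose of each of 6 extracts (columns, Soyo-san first) for the 22 genes called for Soyo-san (rows, from the highest to the lowest Soyo-san value), with an asterisk at an adjusted p under 0.05. Most rows keep 1 colour across the columns, with Menthae Herba mostly deeper than Soyo-san, as in CYP1A1 (3.09 and 1.89), while NPIPA3 is at -1.45 for Soyo-san and between -0.01 and 0.56 for the others.

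The difference between the dose effects was then tested for all 5 extracts, those for Saengmaek-san and Saposhnikoviae Radix being additions to the design. Against Okbyeongpung-san 0 genes differed by edgeR, with 634 at an unadjusted p under 0.05 and 1 by DESeq2, and the smallest adjusted p was 1.00. This does not show that the extracts act alike, nor that they differ. The 95% interval of the CYP1A1 difference ran from 0.23 to 2.05 and that of GPAT3 from 0.12 to 0.53. Both intervals are unadjusted, and both genes were picked for their change with Soyo-san, which can enlarge the difference. Against Menthae Herba 12 genes differed (0.0704%), 5 with a higher and 7 with a lower effect of Soyo-san. CYP1B1 differed by -0.69 ± 0.10 (adjusted p = 0.000443, edgeR), with a log2 change of 0.30 for Soyo-san and 1.00 for Menthae Herba. HMOX1 differed by -0.71 ± 0.14 (adjusted p = 0.0206, edgeR), with 0.23 for Soyo-san and 0.94 for Menthae Herba. For CYP1A1 the difference of -1.20 did not pass (95% interval -2.02 to -0.38, adjusted p = 0.792, edgeR). MT1X, a metallothionein, differed by 1.19 ± 0.25 (adjusted p = 0.0291, edgeR), with 0.22 for Soyo-san and -0.97 for Menthae Herba. DHRS2, a reductase, and RNF144B, a ubiquitin ligase, differed by 0.89 ± 0.16 and 0.72 ± 0.13 (adjusted p = 0.00545 each, edgeR), both lower with Menthae Herba (-1.04 and -0.80) and at -0.15 and -0.08 with Soyo-san. NPIPA3 differed by -1.61 ± 0.35 (adjusted p = 0.0474, edgeR), with the reservation on its family given above.

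Against Guibi-tang 2 genes differed (0.0117%), both with a lower effect of Soyo-san. SQSTM1, which encodes the autophagy receptor p62 and is also an NRF2 target, differed by -0.28 ± 0.05 (adjusted p = 0.0473, edgeR). It had 419, 398 and 393 CPM at the high dose and 386, 380 and 377 CPM at the low dose of Soyo-san (log2 0.08), and a log2 change of 0.36 for Guibi-tang. NPIPA3 was the other, at -1.93 ± 0.36 (adjusted p = 0.0305, edgeR). It was also the 1 gene (0.00587%) that differed from Saengmaek-san, at -2.01 ± 0.37 (adjusted p = 0.0249, edgeR). Against Saposhnikoviae Radix 0 genes differed by edgeR (0%), with 464 at an unadjusted p under 0.05 and a smallest adjusted p of 0.228; DESeq2 was not run for these. Fits on only the libraries compared called 0 genes in the differences from Menthae Herba and Guibi-tang, with 842 for Menthae Herba and 571 for Guibi-tang at an unadjusted p under 0.05 (edgeR), where DESeq2 over all libraries called 18 and 3.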

How the data were processed

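RNA from HT29 cells was sequenced as paired reads of 100 bp from a directional kit, per the labels' protocols. The deposited values are expected counts per gene. The submitters' processing notes name STAR 2.7.3a, RSEM 1.3.3, Trim Galore 0.6.5, FastQC 0.11.9 and the build GRCh38, with no order or settings. Neither the annotation release nor the strand setting is stated. The sample characteristics and the design text disagree on the share of DMSO in the vehicle, which enters no test here. RSEM divides reads that fit several genes between them, so near-identical genes are uncertain. Of the values above 0, 27.7% were not whole, and all were rounded before testing.

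The fit used 57 libraries in 19 groups of 3 (vehicle and 6 extracts at 3 doses), edgeR 4.0.16 in R 4.3.3, filterByExpr (17049 genes kept, 99.95% of counts), TMM scaling and quasi-likelihood tests with robust estimation, 38 residual degrees of freedom and Benjamini-Hochberg adjustment over all genes tested, threshold 0.05. Fold changes are log2 values, and CPM uses TMM-scaled totals, except for the cell type marker levels, which use the plain library totals. The 3 libraries of an extract with 1 per dose entered no test. Difference tests subtracted 1 extract's high-minus-low contrast from another's. The procedure was tested on simulated data. Named genes were the 12 largest changes each way among called protein-coding genes with at least 5 CPM and no overlap, the 3 called members of smallest p per list, 13 readouts, and the 3 largest each way per difference test. LINC00261, which is not protein coding, and the list members named without a call were added after their values were seen. The genes, the 48 lists (961 genes, 833 tested) and the comparisons were chosen with earlier results of these data known. Alternatives were DESeq2's size factors, DESeq2 1.42.0's test, no filter, smaller sets of libraries, a replicate block, leaving out each library and, added after the data were seen, summed counts of near-identical genes. Same-numbered libraries of both doses had deviations correlated at -0.012, 0.079 and 0, so the numbers were not taken as pairs. Promoters are RefSeq stretches, matched for 16 of the 22 called genes, cut to the 250 bases before the start.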

Additional observations from a re-analysis of the deposited data

Results flagged for a closer look

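Among the genes named in the difference tests, 9 results have a dose effect of Soyo-san that differs from that of another extract (edgeR, adjusted p under 0.05). Against Menthae Herba the differences in log2 change were 1.19 for MT1X, 0.89 for DHRS2, 0.72 for RNF144B, -1.61 for NPIPA3, -0.71 for HMOX1 and -0.69 for CYP1B1. Against Guibi-tang they were -1.93 for NPIPA3 and -0.28 for SQSTM1. Against Saengmaek-san it was -2.01 for NPIPA3. For MT1X the levels were low, at 2.23, 1.86 and 2.5 CPM in the high-dose and 1.95, 2.19 and 1.45 CPM in the low-dose Soyo-san libraries. For NPIPA3, which appears in 3 of these tests, the summed family did not pass the test between the Soyo-san doses (log2 0.05, adjusted p = 0.901, edgeR). Groups of 3 libraries were too small for a search for single outlying libraries.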

How the results depend on the processing

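Over the Soyo-san high against low comparison (22 calls), DESeq2's test and the replicate block each gave 37 calls including all 22, no filter gave 164, the libraries of both doses alone 10, and the Soyo-san and Okbyeongpung-san libraries alone 6; leaving out 1 library gave 0 to 78. The numbers pair no samples by the check, so the replicate block is a setting only. For medium against low (0), DESeq2 gave 1, no filter 95, the groups alone 3, and leaving out a library 0 to 1. For high against medium (0), DESeq2 gave 2, no filter 91, the groups alone 4, the Soyo-san and Okbyeongpung-san libraries alone 1, the replicate block 1, and leaving out a library 0 to 12. For the difference from Okbyeongpung-san (0), DESeq2 gave 1, no filter 99 and leaving out a library 0. For that from Menthae Herba (12), no filter gave 116, the groups alone 0, and leaving out a library 3 to 10. For that from Guibi-tang (2), no filter gave 123, the groups alone 0, and leaving out a library 0 to 2. Turned signs were NPIPA3 at 0.05 with its family summed, and, over the fits that left out a library, MYC (0 to 0.14), MKI67 (-0.04 to 0.14; also -0.03 and -0.01) and CDKN1A (-0.05 to 0.09). The causes were not tested. DESeq2's size factors left all 30 named high against low genes on their side of the threshold. CYP1A1 and NPIPA3 rest on 8 to 82 counts per library.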

Other observations

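Some genes were called only without high-dose replicate 3. That library was the nearest of the high dose to the low dose in most called genes, so leaving it out widens the contrast, and leaving out high-dose replicate 1 or 2 gave 0 and 2 calls; the values below are a description. SELENOW, a small selenoprotein, had 76.6, 75.2 and 105 CPM at the high dose and 107, 105 and 111 CPM at the low dose, so that replicate 3 was at the edge of the low-dose range. Its log2 change was -0.50 without that library (adjusted p = 0.000137) and -0.33 with it (adjusted p = 0.121, edgeR). SLC40A1, the iron exporter ferroportin, had 71.0, 73.9 and 80.4 CPM at the high dose and 81.8, 85.3 and 87.1 CPM at the low dose, with a log2 change of -0.23 without replicate 3 (adjusted p = 0.00259) and -0.18 with it (adjusted p = 0.0542, edgeR). ORC1, a subunit of the origin recognition complex, had 42.3, 42.9 and 35.1 CPM at the high dose and 33, 35.8 and 35.9 CPM at the low dose, with 0.29 without replicate 3 (adjusted p = 0.00428) and 0.20 with it (adjusted p = 0.212, edgeR). NOX1, the colon's superoxide-producing oxidase, changed by -0.42 without replicate 3 (adjusted p = 0.00478) and -0.28 with it (adjusted p = 0.252, edgeR). These genes were named after their values were seen.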
